A study of Mus musculus with 27 samples.

Results

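The 3 tumors grown from line 59 were compared with the 9 tumors grown from lines 1, 31 and 123, 3 of each. They were taken by their titles and make up 3 of the 12 tumors and 3 of the 27 samples of the series. The series profiled mouse neural cells and tumors on Affymetrix arrays, 1 array per sample, and also holds 10 immortalized lines and 2 normal neural stem cell (NSC) cultures together with 3 pieces of subcutaneous tissue (SubQ). The labels give p53, a tumor suppressor that halts or kills damaged cells, as mutant in lines 59 and 31 and as wild type (WT) in lines 1 and 123. All 12 tumors are labelled as subcutaneous tissue with the host strain CB17/ICR-Prkdcscid/IcrCrl, a SCID mouse, whose mutant Prkdc leaves it without mature T and B cells while macrophages, neutrophils and natural killer cells remain. The p53 mutation itself, the age and sex of the hosts, the number of cells grafted and the time to harvest were not given in the sources used here. Each line is a single line, so the p-values speak of its 3 tumors and not of p53 mutant lines at large. The titles call the tumors biological replicates and nothing states that they came from separate animals, so the tests measure the spread between these samples.

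Neural stem cells carry the transcription factor Sox2 and the intermediate filament protein nestin and give rise to neurons, astrocytes and oligodendrocytes. Glial cells are joined by gap junctions, channels assembled from connexins, and the glia of peripheral nerves arise from the neural crest and pass through a precursor stage that expresses cadherin-19. A tumor that grows under the skin also takes up host cells, among them fibroblasts, vessels and macrophages, and a piece of it can include muscle, fat and skin from its edge. Arrays of such bulk pieces give 1 level per gene, in which fewer cells of a type and less RNA per cell cannot be told apart.

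The 3 line 59 tumors resembled each other as much as the tumors of the other lines did. Their arrays correlated with each other at r = 0.975 to 0.985 across genes, a description in which genes are not independent replicates. They correlated with line 123 tumors at 0.963 to 0.975, with line 31 tumors at 0.947 to 0.970 and with line 1 tumors at 0.946 to 0.961. The median SD of a gene over 3 tumors, on the log2 scale, was 0.181 in line 59, 0.187 in line 1, 0.244 in line 31 and 0.169 in line 123. Median log2 levels of the tumor arrays lay between 5.47 and 5.57, and those of the 10 cultured lines between 7.02 and 7.08. SubQ arrays had medians of 5.75 to 5.78 and a narrower spread over genes (SD 1.21 to 1.34, against 1.83 to 1.96 in tumors). Levels in culture are therefore read only against other cultures, and levels in SubQ tissue are not set against those of tumors.

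Of 19937 genes, 233 were called in line 59 tumors against the other 3 lines, 150 higher and 83 lower (limma, Benjamini-Hochberg adjusted p under 0.05). This is 1.17% of the genes, with 0.752% higher and 0.416% lower. A difference is the mean of the 3 line 59 tumors minus the mean of the 3 other line means, on the log2 scale. Called or not, 274 genes (1.37%) had all 3 line 59 tumors above the 9 others and 232 (1.16%) had all 3 below them, 2.54% of genes in all. Of the called genes, 99 higher ones (0.497%) and 42 lower ones (0.211%) were without overlap in this way. The tests of single lines called 654 genes against line 1 (3.28%; 1.73% higher and 1.55% lower), 221 against line 31 (1.11%; 0.717% and 0.391%) and 109 against line 123 (0.547%; 0.256% and 0.291%). These 3 comparisons share the line 59 arrays. The count of 233 fell to 86, 97 and 137 without line 59 tumor 1, 2 or 3, to 147 without line 1 tumor 3 and to 149 without line 123 tumor 3. The count against line 1 fell to 365 and 287 without line 1 tumor 2 or 3 and to 341, 356 and 404 without line 59 tumor 1, 2 or 3. Against line 31 it was 75, 359 and 393 without line 31 tumor 1, 2 or 3 and 123, 105 and 147 without line 59 tumor 1, 2 or 3. Against line 123 it was 171 and 56 without line 123 tumor 1 or 3, 217 without line 31 tumor 3, and 65 and 56 without line 59 tumor 1 or 2.

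Odorant and vomeronasal receptor genes, of which 1190 were measured, served as a stand-in for genes without signal. Of these, 95% had a mean under 5.25 over the 12 tumors, and a group mean under this level is written here as not shown to be above background. Where the lower group lay under it, the difference is a lower bound. None of the receptor genes was called. The other lines lay under this level in 32 of the 150 higher calls, and line 59 lay under it in 20 of the 83 lower calls. Over the 10 cultured lines the same percentile was 6.72.

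The largest increase among genes without overlap was that of Gjc3, a connexin of myelin-forming glia. Its log2 levels were 6.91, 7.37 and 8.39 in line 59 tumors 1, 2 and 3. They were 4.45, 3.92 and 4.32 in line 1, 3.65, 4.18 and 3.65 in line 31, and 4.05, 4.11 and 4.16 in line 123 tumors. The lowest line 59 tumor thus lay far above the highest of the other 9, and none of the other lines was shown to be above background. The difference was 3.51 ± 0.25 SE (limma adjusted p = 6.2e-05), an 11.4-fold lower bound, and it was alike against lines 1, 31 and 123 (3.33, 3.73 and 3.45).

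Gjc3 and Gjc1 were the called members among 16 connexin genes measured, and they moved in opposite directions. Of all genes 1.17% were called, and Gjc3 is a given marker. Gjc1, a connexin of vessels and of the heart's conduction system, had levels of 6.27, 6.57 and 6.04 in line 59 tumors and from 7.13 to 8.09 in the other 9, with a median of 7.53. All 3 line 59 tumors lay below the others, and Gjc1 fell by 1.23 ± 0.15 SE on the log2 scale (adjusted p = 0.0014). Gja1, the main connexin of astrocytes and fibroblasts, differed by -0.64 ± 0.26 SE and was not called (adjusted p = 0.32). Gjb2 lay below the 9 other tumors in all 3 line 59 tumors without passing the test (-0.82 ± 0.21 SE, adjusted p = 0.10). Without line 123 tumor 2 it passed, with -0.70 and an adjusted p of 0.034. The other 12 connexins differed by -0.35 to 0.07. The median of the 16 differences was -0.12, against -0.02 over all genes.

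Cdh19, the cadherin of Schwann cell precursors, was the second called member of the list of Schwann and neural crest glia genes, of which 17 were measured. It had levels of 5.44, 5.78 and 6.21 in line 59 tumors and from 2.63 to 3.72 in the 9 others, with a median of 3.04. The groups were widely apart and the other lines were not shown to be above background. The difference was 2.73 ± 0.23 SE (adjusted p = 0.00015), again alike against line 1 (2.73), line 31 (2.81) and line 123 (2.64). The remaining members of that list did not pass the test, where 0.752% of all genes were called higher. Sox10, the transcription factor that specifies neural crest glia, differed by 0.46 (6.28 against 5.83, adjusted p = 0.31) and Erbb3, the neuregulin receptor of Schwann cells, by 0.53 (adjusted p = 0.21). Foxd3, an early neural crest factor, differed by 0.08, the myelin regulator Egr2 by 0.09 and the nerve growth factor receptor gene Ngfr by -0.11. The list's median difference was 0.13. Its mean level per tumor, Gjc3 and Cdh19 included, was 5.88 to 6.26 in line 59 and 5.36 to 5.67 in the other 9. Gjc3 is a given marker and Cdh19 was named for its increase, so this mean does not speak for the rest of the list. A mean without them was not taken.

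**Figure D1:**
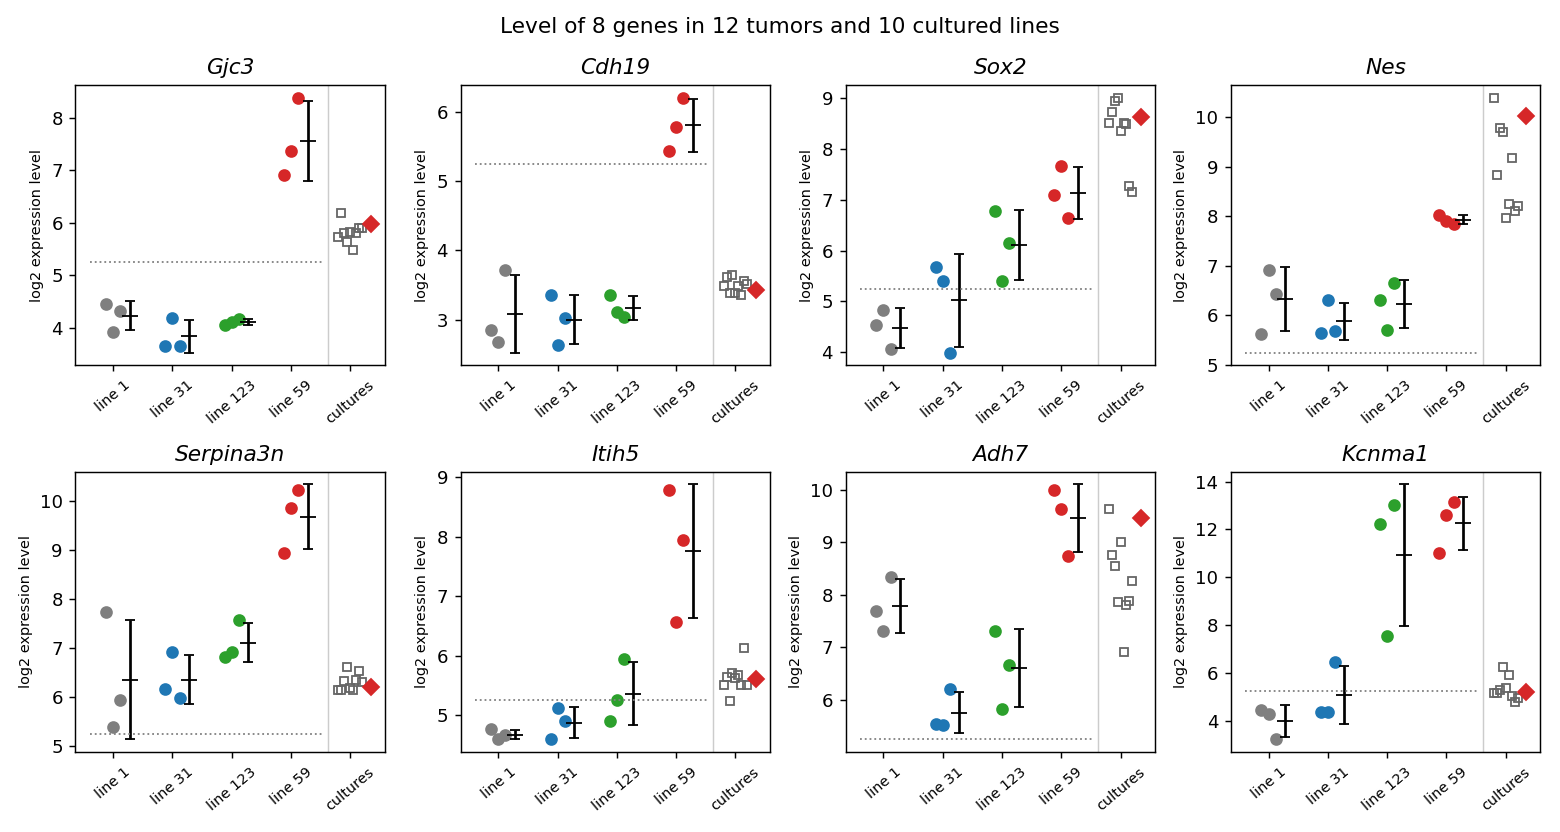
Log2 expression level of 8 genes in the tumors of lines 1, 31, 123 and 59 (filled circles, 1 per tumor, with the mean and SD of 3 beside them) and in 10 cultured lines (open squares, line 59 as a red diamond). The dotted line is the odorant receptor level of the tumors, 5.25; cultures right of the vertical line were not on 1 scale with the tumors. Line 59 tumors lay above all others in Gjc3, Cdh19, Nes, Serpina3n, Itih5 and Adh7, and overlapped with line 123 in Sox2 and Kcnma1.

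Both classical stem cell genes among the markers were higher in line 59 tumors. Nes, which encodes nestin, had levels of 8.02, 7.90 and 7.85 in line 59 tumors. In the 9 others it ran from 5.63 to 6.91, with a median of 6.32. No tumor of another line reached the line 59 levels, whose SD was 0.09. The difference was 1.78 ± 0.26 SE (adjusted p = 0.0048), and the gene was called against line 1 (1.60), line 31 (2.04) and line 123 (1.70) alike.

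Sox2 rose by 1.93 ± 0.36 SE (adjusted p = 0.024), with levels of 7.10, 7.66 and 6.64 in line 59 tumors. It was at 4.54, 4.84 and 4.06 in line 1 tumors, 5.68, 5.40 and 3.99 in line 31 tumors and 6.78, 5.40 and 6.14 in line 123 tumors. Line 123 tumor 1 lay above line 59 tumor 3, so the groups overlapped, and against line 123 alone the gene was not called (1.03, adjusted p = 0.44). The call was lost without line 59 tumor 1 (1.95, adjusted p = 0.11), line 59 tumor 2 (1.67, 0.16), line 1 tumor 3 (1.86, 0.05) or all line 1 tumors (1.57, 0.15), and with the 9 other tumors fitted as 1 group (adjusted p = 0.19). The mean of the other lines was 5.20, under the odorant receptor level.

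These were 2 of 3 called members among 20 measured neural stem and progenitor genes, where 0.752% of all genes were called higher. Both were given beforehand as markers of line 59 tumors, so their calls are not a result about the list. The third was Cd24a, a surface glycoprotein of immature neural cells, at 9.89, 9.49 and 9.52 in line 59 tumors. In lines 1 and 31 it ran from 6.42 to 7.77, but line 123 tumors held 10.52, 10.50 and 9.87, so that lines 59 and 123 overlapped. Its difference was 1.45 ± 0.21 SE (adjusted p = 0.0055). The call was lost without line 59 tumor 1 (1.33, 0.052) and without the line 1 tumors (0.82, 0.14). The other 17 members were not called. Among them were Prom1 (-0.15), Fabp7, a fatty acid carrier of radial glia (0.01), the stem cell receptor gene Nr2e1 (0.03), Pax6 (-0.61), Sox9 (-0.27) and Vim, which encodes the filament protein vimentin (0.08). The list's median was -0.01.

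Of the genes of differentiated neural cells 2 were called, in lists of 18, 18 and 22 genes, where 1.17% of all genes were called. None of 18 astrocyte genes was called. Gfap, the intermediate filament gene of astrocytes, had a mean of 5.27 in line 59 against 4.73 (0.54, adjusted p = 0.42), and Aqp4, Aldh1l1, S100b, Gjb6 and Mlc1 lay under the odorant receptor level on average over the 12 tumors. Of 18 oligodendrocyte lineage genes 1 was called, Enpp6, a choline phosphodiesterase of newly formed oligodendrocytes. Its levels were 4.97, 5.79 and 5.95 in line 59 tumors and 3.65 to 4.31 in all others. The difference was 1.66 ± 0.19 SE (adjusted p = 0.00085). It is a lower bound, since the other lines averaged 3.91, under the odorant receptor level, as did line 59 tumor 1. Olig1, Olig2, Mog, Mag and Opalin, defining genes of that lineage, lay under the odorant receptor level on average and differed by -0.18 to 0.04. Of 22 neuron genes, Syn1, a synaptic vesicle protein gene, was called with a difference of 0.52 ± 0.11 SE (adjusted p = 0.049). Its call was lost without any single tumor other than line 1 tumor 2, with adjusted p-values of 0.054 to 0.2, the highest without line 59 tumor 1. The neuron list's mean level per tumor was 5.28 to 5.40 in line 59, 5.0 to 5.20 in lines 1 and 31 and 5.54 to 5.79 in line 123.

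Serpina3n, a secreted serine protease inhibitor that reactive glia and the liver make, was the next largest increase. Its levels were 8.95, 9.86 and 10.23 in line 59 tumors and from 5.39 to 7.74 in the 9 others, with a median of 6.82. Line 59 lay above every other tumor, by 3.07 ± 0.42 SE on the mean (adjusted p = 0.0034). The gene was called against lines 1 and 31 (3.32 each) and missed the threshold against line 123 (2.57, adjusted p = 0.052). The other measured genes of this serpin cluster, Serpina3a and Serpina3b, were not called (-0.20 and -0.05) and lay under the odorant receptor level. Of 21 reactive glia and acute phase genes, Serpina3n rose and Osmr, the oncostatin M receptor gene, fell. Of all genes 0.752% were called higher and 0.416% lower, and Serpina3n is a given marker. The list's median was -0.16, and Lcn2, an acute phase lipocalin, differed by -0.50 (adjusted p = 0.35), Saa3 by -0.74 (adjusted p = 0.24) and Stat3, the transcription factor of the acute phase, by 0.02.

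Itih5, an inter-alpha-inhibitor heavy chain that binds the matrix sugar hyaluronan, varied most of the 6 markers within line 59 (SD 1.12), with 8.78, 6.56 and 7.95. In the 9 others it ran from 4.59 to 5.95, with a median of 4.90. The lowest line 59 tumor was still above the highest of the others, line 123 tumor 3. The difference was 2.79 ± 0.35 SE (adjusted p = 0.0019), a lower bound, since the other lines averaged 4.97. It was the sole called member of 18 hyaluronan and inter-alpha-inhibitor genes, where 1.17% of all genes were called. Itih5 is a given marker, so its call is not a result about the list. Itih1, Itih2, Itih3 and Itih4 differed by -0.50 to 0.04. Has2, a hyaluronan synthase gene, differed by -1.41 and Cd44, the hyaluronan receptor gene, by -0.47 (adjusted p = 0.19 and 0.29).

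Adh7, an alcohol dehydrogenase that also oxidizes retinol, had levels of 9.99, 9.64 and 8.74 in line 59 tumors. It was at 7.70, 7.31 and 8.34 in line 1 tumors, 5.54, 5.52 and 6.20 in line 31 tumors and 7.32, 5.83 and 6.67 in line 123 tumors. All 3 line 59 tumors lay above the others, with line 1 nearest. The difference was 2.74 ± 0.33 SE (adjusted p = 0.0014), smallest against line 1 (1.67) and largest against line 31 (3.70). With the 9 other tumors fitted as 1 group the call was lost (adjusted p = 0.066). None of the other 22 measured genes of retinoid and alcohol metabolism was called: the neighbouring family members Adh1, Adh4 and Adh5 differed by 0.27, -0.20 and 0.69, and the retinaldehyde dehydrogenase genes Aldh1a1, Aldh1a2 and Aldh1a3 by -0.54, -0.30 and -0.27. Of 19 NRF2 target genes, a detoxification group, none was called. Over all genes 1.17% were called, a share at which both lists would hold few calls.

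Beside these genes, 7 others completed the 12 largest increases without overlap. Rasgrp3, an exchange factor that activates Ras and Rap, was at 9.33, 10.34 and 10.12 in line 59 tumors against 6.63 to 8.06 elsewhere (2.58 ± 0.25 SE, adjusted p = 0.00034). Tdrkh, a tudor domain protein of the piRNA pathway, was at 7.34, 7.18 and 7.59 against 4.08 to 5.72 (2.43 ± 0.17 SE, adjusted p = 6.2e-05). Bex1, a small adaptor protein made in brain, was at 5.73, 5.71 and 6.25 against 2.95 to 4.39 (2.19 ± 0.17 SE, adjusted p = 9.8e-05). Each of these 3 genes was called against every other line. Syt11, a vesicle trafficking synaptotagmin, was at 7.87, 7.43 and 8.44 against 5.48 to 6.54 (1.99 ± 0.21 SE, adjusted p = 0.00044). Slc35f1, a solute carrier of brain, was at 6.09, 4.80 and 6.17 against 3.50 to 4.12 (1.88 ± 0.24 SE, adjusted p = 0.0019). Both were likewise called against every other line. For Tdrkh, Bex1 and Slc35f1 the other lines lay under the odorant receptor level.

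The last of the 12 increases were less firm. Uchl1, a ubiquitin hydrolase abundant in neurons, was at 7.44, 8.27 and 6.78 against 4.67 to 6.47, a difference of 1.83 ± 0.39 SE (adjusted p = 0.044). The call did not hold without line 59 tumor 1 or 2 (adjusted p = 0.16 and 0.26), line 1 tumor 3 (0.089), line 31 tumor 1 (0.082) or any line 123 tumor (0.065 to 0.083). Stk32b, a serine/threonine kinase gene, was at 5.81, 7.84 and 6.96 against 4.55 to 5.75 (1.82 ± 0.34 SE, adjusted p = 0.025). On average the other lines lay under the odorant receptor level in Stk32b, so its difference is a lower bound. Its call was lost without line 59 tumor 2 or 3 (0.14 and 0.1), line 1 tumor 3 (0.05), line 31 tumor 1 (0.054) or line 123 tumor 2 or 3 (0.052 and 0.053). Leaving out all line 1 tumors ended both calls (adjusted p = 0.066 and 0.084), and fitting the 9 other tumors as 1 group ended that of Uchl1 (0.083).

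With 1 probe set per gene, the largest difference of all called genes belonged to a gene whose groups overlapped, and it was chosen after its values were seen. Kcnma1, the pore subunit of the large-conductance calcium-activated potassium channel, was at 11.03, 12.62 and 13.13 in line 59 tumors. It was also high in line 123 tumors, at 12.23, 7.53 and 13.00, and between 3.22 and 6.47 in lines 1 and 31. High Kcnma1 was thus shared by all line 59 tumors and 2 of 3 line 123 tumors. The difference was 5.60 ± 0.93 SE (adjusted p = 0.012), with 8.27 against line 1, 7.19 against line 31 and 1.34 against line 123 (adjusted p = 0.84). The call was lost without line 59 tumor 2 (5.42, adjusted p = 0.076), line 59 tumor 3 (5.17, 0.076) or the line 1 tumors (4.26, 0.14), and with the 9 other tumors fitted as 1 group (0.34). With the mean of all its probe sets the difference was 2.63 (adjusted p = 0.014), below that of Gjc3.

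**Figure D2:**
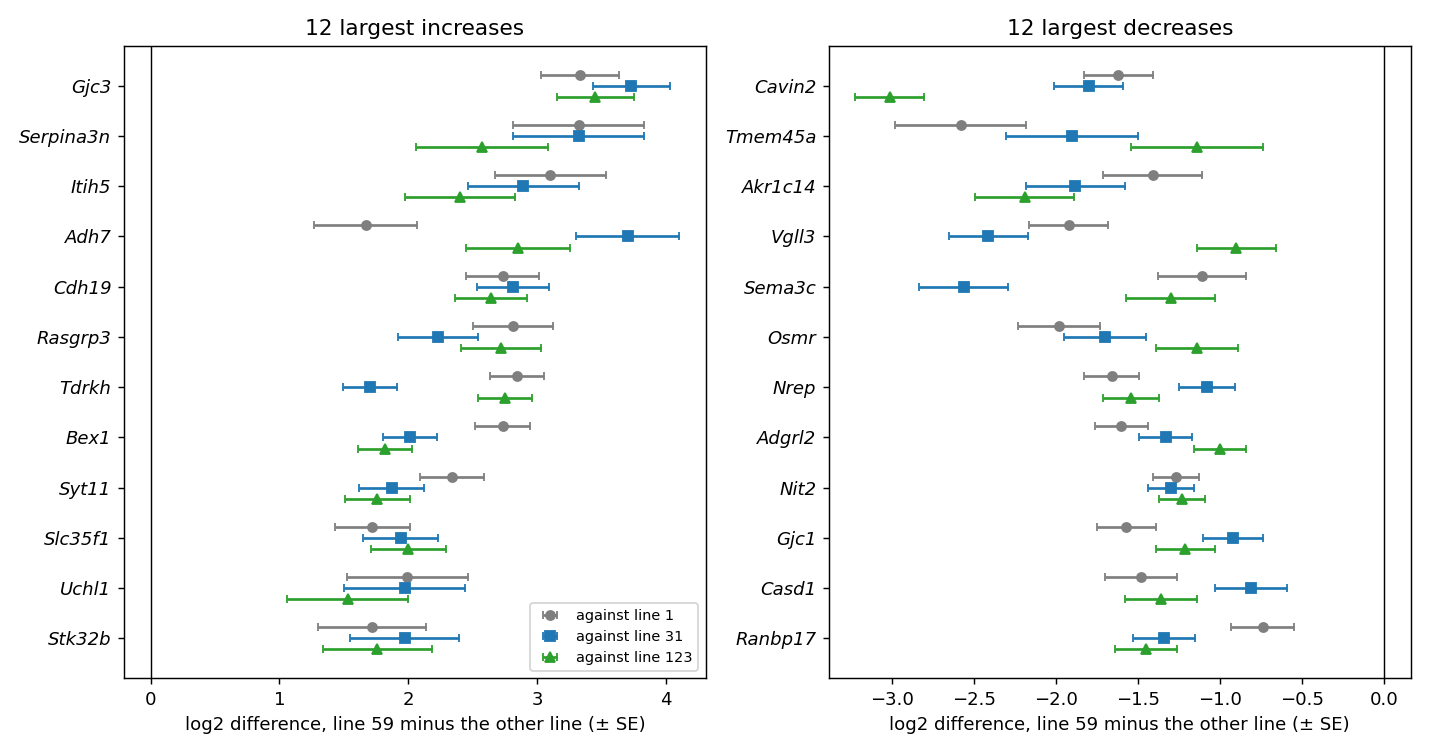
Log2 difference of line 59 tumors from the tumors of line 1 (circles), line 31 (squares) and line 123 (triangles), with SE, for the 12 largest increases (left) and the 12 largest decreases (right) among called genes without overlap. Gjc3 and Cdh19 differed by a like amount from each line, while Adh7 was nearest to line 1 and Vgll3 nearest to line 123; the 3 comparisons share the line 59 arrays.

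Among the decreases without overlap, a gene of caveolae, the membrane pits that are common in vessels, fat and fibroblasts, fell most. Cavin2, a coat protein of these pits, was at 5.15, 4.62 and 5.30 in line 59 tumors and at 6.43 to 8.28 in the 9 others, with a median of 6.81. It fell by 2.14 ± 0.17 SE on the log2 scale (adjusted p = 9.8e-05), by 3.01 against line 123. Line 59 itself was not shown to be above background. The same held for Akr1c14, an aldo-keto reductase of steroids, at 3.88, 4.22 and 4.43 against 4.91 to 6.50 (-1.83 ± 0.24 SE, adjusted p = 0.0027), and for Ranbp17, a nuclear transport receptor, at 4.52, 4.60 and 4.56 against 5.07 to 6.18 (-1.18 ± 0.16 SE, adjusted p = 0.0030). All 3 genes had no overlap, and their differences are lower bounds in size.

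Signalling and guidance genes followed. Osmr, which signals for oncostatin M through gp130, was at 7.74, 7.21 and 8.48 in line 59 tumors and at 8.70 to 9.88 in the 9 others (-1.61 ± 0.20 SE, adjusted p = 0.0019). Sema3c, a secreted semaphorin that guides axons and vessels, was at 5.48, 6.13 and 6.44 against 6.80 to 8.86 (-1.65 ± 0.22 SE, adjusted p = 0.0032), with its largest gap to line 31 (-2.56). Both genes lay below every other tumor, and against line 123 alone neither was called (adjusted p = 0.070 and 0.062). Vgll3, a cofactor of TEAD transcription factors, was at 6.74, 6.02 and 6.84 against 7.26 to 9.27 (-1.74 ± 0.19 SE, adjusted p = 0.00083), and was nearest to line 123 (-0.90). Tmem45a, a transmembrane protein gene, was at 6.33, 5.64 and 6.48 against 6.84 to 9.10 (-1.87 ± 0.33 SE, adjusted p = 0.015). The Tmem45a call was lost without line 59 tumor 1 (adjusted p = 0.065) or 2 (0.11) and without the line 1 tumors (0.13). With the 9 other tumors fitted as 1 group, the calls of Vgll3, Sema3c and Tmem45a were lost (adjusted p = 0.11, 0.16 and 0.14).

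The remaining decreases among the 12 held narrow ranges. Nrep, a regulator of cell migration first found in neurons, was at 7.15, 7.02 and 7.38 against 8.17 to 9.07 (-1.43 ± 0.14 SE, adjusted p = 0.00038). Adgrl2, an adhesion receptor of the latrophilin family, was at 8.61, 8.30 and 8.32 against 9.08 to 10.11 (-1.31 ± 0.13 SE, adjusted p = 0.00040). Nit2, an amidase of glutamine metabolism, was at 5.64, 5.58 and 5.82 against 6.72 to 7.12 (-1.27 ± 0.12 SE, adjusted p = 0.00034). Line 59 lay clear of all 9 others in each, and all 3 genes were called against every other line. Casd1, which acetylates sialic acids, was at 7.22, 6.83 and 6.58 against 7.30 to 8.63 (-1.21 ± 0.18 SE, adjusted p = 0.0067), and its adjusted p was 0.052 without the line 1 tumors and 0.05 with the 9 other tumors as 1 group.

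Called against each of lines 1, 31 and 123 were 27 genes higher and 9 lower in line 59. Outside the genes above, and named here after their values were seen, the higher ones included Nebl, an actin-binding protein of the nebulin family (7.35 against 5.58, a difference of 1.77), and Mapk10, a neuronal stress kinase (6.20 against 4.47, 1.73). They also included Ppp1r9a, a neuronal actin and phosphatase scaffold (7.46 against 5.75, 1.71), and Sort1, the sorting receptor sortilin (6.98 against 5.33, 1.64). Frzb, a secreted Wnt antagonist, differed by 1.13 (5.57 against 4.44), Xrcc5, a subunit of the Ku complex of DNA break repair, by 1.14 (8.93 against 7.79), and F2rl2, a protease-activated receptor, by 1.45 (6.87 against 5.42). Tbx18, a T-box transcription factor, was among the lower ones (4.72 against 5.43, -0.71), as were Cgnl1, a junction protein (5.34 against 6.36, -1.02), and Galnt13, a neural glycosyltransferase (3.81 against 4.79, -0.98). The other lines lay under the odorant receptor level in Mapk10 and Frzb, and line 59 did in Tbx18. Galnt13 was not shown to be above background in either group.

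In lists of signalling genes few members were called, with 0.752% of all genes called higher and 0.416% lower. Of 19 Sox factors, Sox2, a given marker, and Sox6 rose. Sox6, a factor of glial precursors, was at 6.57, 6.39 and 7.11 in line 59 tumors against 4.92 to 5.96 in the others, without overlap (1.20 ± 0.18 SE, adjusted p = 0.0058). Of 21 Notch pathway genes, the Notch target Hey1 rose, with 8.03, 7.14 and 6.95 against 5.50 to 6.73 (1.25 ± 0.19 SE, adjusted p = 0.0079). Without the line 31 tumors the Hey1 call was lost (0.95, adjusted p = 0.059). None of 28 Wnt pathway, 23 BMP and Id, 33 growth factor and receptor, 17 RAS-MAPK output or 16 cell cycle inhibitor genes was called. The 29 cell cycle genes had a median of 0.21 and no call, and neither had the 20 hypoxia and glycolysis, 16 cholesterol synthesis or 12 melanocyte genes. Of 20 genes of mesenchymal glioma, Lgals3, a galectin, rose by 0.87 ± 0.17 SE (adjusted p = 0.031), a call lost without line 59 tumor 1 or 2 (0.095 and 0.17), line 1 tumor 3, line 31 tumor 1, line 123 tumor 2 or 3, or any 1 of the other lines. Of 16 imprinted genes, Peg10, a retrotransposon-derived growth gene, was called (2.27 ± 0.26 SE, adjusted p = 0.00091), with 9.27, 9.04 and 8.08 in line 59 and 4.29 to 4.69 in line 31. Lines 1 and 123 held 7.06 to 8.18 and overlapped with line 59, and without the line 31 tumors the call was lost (1.25, 0.058).

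Line 31 shares the p53 mutant label with line 59, and of 21 p53 target genes 1 was higher and 1 lower in line 59 against the other lines. Over all genes, 0.752% were called higher and 0.416% lower. Pmaip1, which encodes the death protein Noxa, was at 7.46, 7.0 and 6.62 against 5.8 to 6.50 (0.88 ± 0.19 SE, adjusted p = 0.044). Its call was lost without line 1 tumor 2 or 3, line 31 tumor 1 or 2, line 59 tumor 1 or 2, or any line 123 tumor, with adjusted p-values of 0.053 to 0.23. Tnfrsf10b, a death receptor gene, was at 5.43, 5.37 and 5.57 against 5.98 to 7.26 (-0.94 ± 0.14 SE, adjusted p = 0.0076). Its call was lost without line 59 tumor 1 (0.052) or 2 (0.06). Against line 31 alone, Pmaip1 was called (adjusted p = 0.040) and Tnfrsf10b was not (0.071). Mdm2 (-0.09), Ccng1 (0.07) and Sesn2 (-0.07), classical targets, were not called, and the list's median was -0.02.

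Part of the calls in both directions passed the test of a single line against line 1 only. A missed threshold against lines 31 and 123 does not show that a gene was alike there. Of the 150 genes called higher, 48 were called against line 1 and neither of the other lines, and so were 30 of the 83 called lower, 24 of which overlapped between groups. The sole run of 5 neighbouring genes called in 1 direction was of this kind: Caap1, Plaa, Ift74, Lrrc19 and Tek on chromosome 4 differed by -1.32 to -1.0 from the other lines. Against line 1 they differed by -4.03 to -3.07, and against lines 31 and 123 by -0.18 to 0.17. Tek, an angiopoietin receptor gene of vessels, was the one called gene of 20 endothelial genes, where 1.17% of all genes were called. Jun, an immediate early factor on the same chromosome, and Foxc2, a mesenchymal factor, were the called members of the lists of 17 immediate early and 22 epithelial-mesenchymal genes. Without the line 1 tumors their differences were 0.00 (Tek), 0.01 (Jun) and 0.01 (Foxc2), with adjusted p-values of 1, 0.99 and 0.99.

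Lists of the other cell types that a tumor piece can hold gave no call in line 59 apart from Tek and Cxcl1. Over all genes 1.17% were called, and lists this short hold few calls at that share. None of 21 macrophage, 16 lymphocyte, 17 neutrophil and mast cell, 14 mural, 17 adipocyte, 21 skeletal muscle, 18 keratinocyte and 21 fibroblast genes was called, and neither was any of 18 interferon, 13 antigen presentation or 16 complement genes. Of 25 chemokine genes, Cxcl1, which attracts neutrophils, fell, with 6.03, 6.26 and 6.37 against 6.44 to 8.48 (-0.96 ± 0.19 SE, adjusted p = 0.035). Its call was lost without line 59 tumor 1, 2 or 3 (0.18, 0.15 and 0.09), without any line 123 tumor (0.058 to 0.073) and without the line 1 tumors (-0.57, 0.25). Mean macrophage levels per tumor were 7.87 to 8.61 in line 59, 7.47 to 8.04 in lines 1 and 123 and 8.30 to 8.68 in line 31. Mean fibroblast levels were 7.83 to 8.10 in line 59 and 7.92 to 8.73 elsewhere. The median differences of the fibroblast, neutrophil and interferon lists were -0.27, -0.28 and -0.36.

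Levels of skin and muscle genes varied among the line 59 tumors. Mean levels of the 18 keratinocyte genes were 5.07, 5.08 and 6.89 in line 59 tumors 1, 2 and 3, against 5.03 to 6.82 in the others. Mean levels of 21 skeletal muscle genes were 5.86, 6.28 and 6.94, against 5.37 to 7.39. Line 59 tumor 3 was the highest of its line in both, and it was also the highest in Gjc3, Cdh19 and Serpina3n but the lowest in Adh7, Nes and Sox2. Without that tumor the calls of these 6 genes held. Neutrophil and mast cell means were 4.20 to 4.59 in line 59 tumors, below the 4.61 to 5.48 of the 9 others, with 14 of 17 genes under the odorant receptor level. Lymphocyte means were 4.48 to 4.68, with 12 of 16 genes under it. The part of these cells in the results above was not tested.

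The calls were unevenly spread over the chromosomes, a pattern noticed in the values and described here without a test. Chromosome 16 held 648 of the measured genes and 26 of the 83 lower calls, or 4.01% of its genes against 0.416% over all, and no higher call. In 15 of the 26 all 3 line 59 tumors lay below the 9 others, as in 42 of all 83 lower calls. The 26 genes differed by -1.87 to -0.53, with a median of -0.66. Beside Tmem45a, Vgll3 and Nit2, those without overlap included Opa1, a mitochondrial fusion protein (-0.58), and Hmgn1, a nucleosome-binding protein (-0.53). Called but with overlapping groups were Fstl1, a secreted glycoprotein (-0.99), Alcam, an adhesion molecule (-0.96), and Cd47, the signal against being eaten by macrophages (-0.64). Chromosome 4 was next in lower calls, with 12 (1.04% of its genes, 1 without overlap), the run named above among them. Chromosome 3 held 943 genes and 28 of the 150 higher calls, or 2.97% against 0.752%, with 2 lower calls. In 24 of the 28 the groups did not overlap, as in 99 of all 150 higher calls. Chromosome 17 followed with 17 higher calls (1.82% of its genes, 13 without overlap) and 1 lower, and the X chromosome with 12 (1.62%, 5 without overlap) and 3. Adh7, Nes, Sox2, Tdrkh, Syt11, Hey1 and Sort1 were among these 28, as was Lxn, a carboxypeptidase inhibitor of stem cells, at 10.16, 9.50 and 9.88 in line 59 tumors against 7.5 to 8.84 (1.64 ± 0.23 SE, adjusted p = 0.0041).

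The whole chromosomes were shifted slightly as well. Each gene's level was set against its mean over the 12 tumors. Per array, the median over a chromosome's genes above the odorant receptor level was taken, less the array's median over all genes above it. For chromosome 16 it was -0.17, -0.21 and -0.17 in line 59 tumors and -0.13 to 0.17 in the others, so that line 59 lay lowest with line 123 next. The median difference was -0.26 against line 1, -0.32 against line 31 and -0.07 against line 123. For chromosome 3 it was 0.29, 0.09 and 0.15 in line 59 and -0.36 to 0.08 in the others, with median differences of 0.09, 0.22 and 0.44 against lines 1, 31 and 123. Chromosome 3 thus stood apart mainly from line 123 and chromosome 16 mainly from lines 1 and 31. Chromosome 13 lay below the others in line 59 (-0.14 to -0.08 against -0.03 to 0.13) and chromosome 19 above (0.03 to 0.11 against -0.08 to 0.02), and the other 16 chromosomes overlapped. Chromosome 17 was among these 16, with 0.06 to 0.15 in line 59 against -0.18 to 0.07. With genes of all levels, chromosome 3 overlapped too (0.03 to 0.14 in line 59 against up to 0.05), and for chromosome 16 line 59 held -0.13 to -0.08 against a lowest value of -0.08 elsewhere.

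Counts of calls on these chromosomes depended on single tumors. The 26 calls on chromosome 16 fell to 5, 3 and 5 without line 59 tumor 1, 2 or 3. They fell to 14 and 10 without line 1 tumor 2 or 3, to 15 and 14 without line 123 tumor 1 or 3, and to 10 without line 31 tumor 1. The 28 calls on chromosome 3 fell to 8, 15 and 17 without line 59 tumor 1, 2 or 3 and to 18 without line 123 tumor 3. Without the line 1 tumors, 3 calls were left on chromosome 16 and 17 on chromosome 3. The calls were not confined to a stretch: in gene order they ran from place 52 to 629 of 648 on chromosome 16 and from place 9 to 910 of 943 on chromosome 3. Cut into 10 stretches of like gene number, chromosome 16 had a negative median difference in each (-0.45 to -0.09) and chromosome 3 a positive one (0.15 to 0.33). DNA copy number was not measured, and whether it differed was not tested.

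**Figure D3:**
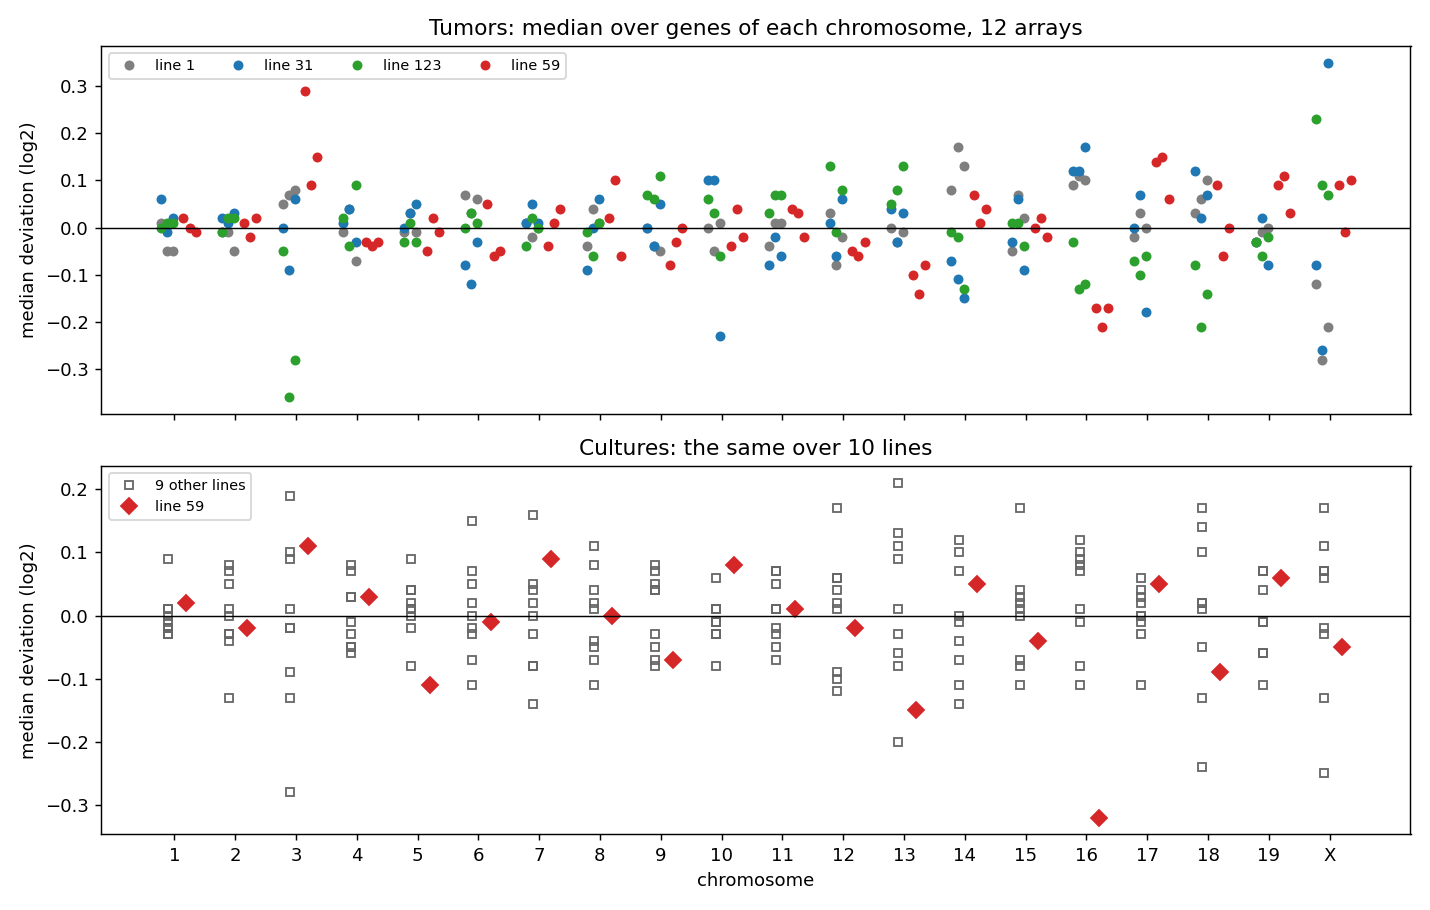
Median deviation (log2) of the genes of each chromosome, above for the 12 tumor arrays and below for the 10 cultured lines, each gene set against its mean over the arrays of that panel. Both panels use genes above the odorant receptor level of the tumors, 5.25, with each array's median over these genes subtracted. Line 59 (red) lay lowest on chromosome 16 in tumors (-0.21 to -0.17) and in culture (-0.32), and highest on chromosome 3 in tumors (0.09 to 0.29) but not in culture (0.11).

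**Figure D4:**
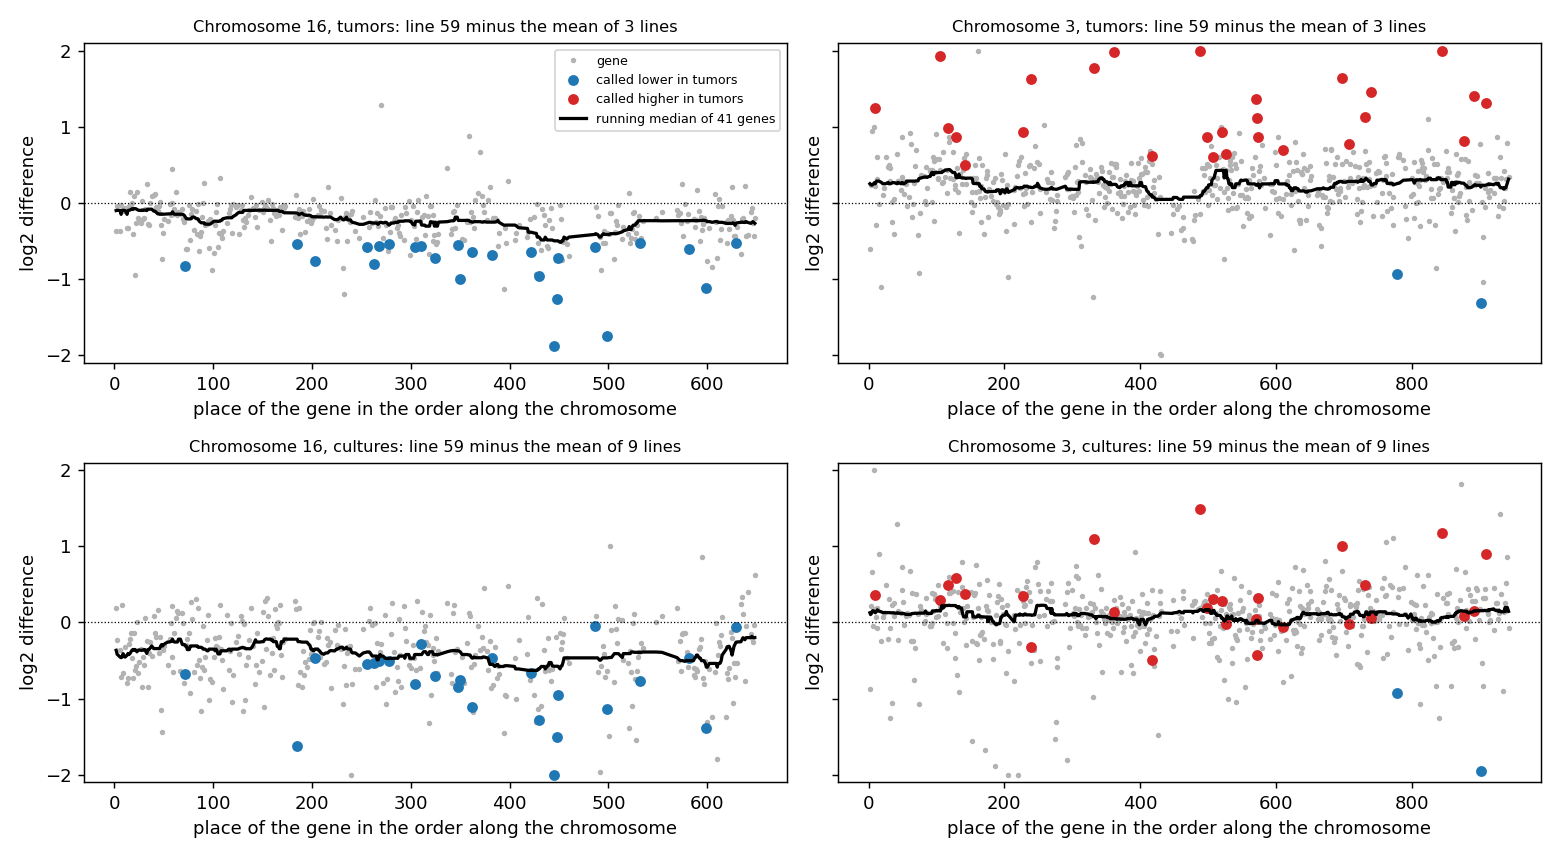
Log2 difference of line 59 for the genes above the odorant receptor level, by their place in the order along chromosome 16 (left) and 3 (right), in tumors against the mean of 3 lines (top) and in culture against the mean of 9 lines (bottom), with values beyond 2 drawn at 2. The level used in all panels is that of the tumors, 5.25. The black line, a running median of 41 genes, stayed below 0 along chromosome 16 in both panels and above 0 along chromosome 3 in tumors.

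Line 59 in culture, measured once and so without a test, shared the decreases more than the increases. Of the 42 genes called lower without overlap, it lay below both other grafted lines with a culture array, 31 and 123, in 36 (85.7%), against 31.1% of all genes, and it was the lowest of 10 lines in 24 (57.1%, against 11.8%). Of the 99 called higher, it lay above both in 57 (57.6%, against 32.9%) and was the highest of 10 in 20 (20.2%, against 15.9%). Without genes of chromosomes 3 and 16 these were 20 of 26 (76.9%) lower and 42 of 75 (56.0%) higher, and line 59 was the lowest of 10 in 10 of 26 (38.5%) and the highest in 14 of 75 (18.7%). Casd1 was at 5.33 in the line 59 culture against 8.35 to 9.55 in the other 9, Nit2 at 6.81 against 8.06 to 8.58, and Adgrl2, Vgll3, Sema3c, Osmr and Ranbp17 were also lowest there. In that culture Casd1 and Ranbp17 (6.48) lay under 6.72, the odorant receptor level of the cultures, and were not shown to be above background.

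The leading increases differed from this pattern. In all 10 cultures Gjc3 (5.48 to 6.18, line 59 at 5.97), Cdh19 (3.36 to 3.65, line 59 at 3.43), Serpina3n (6.14 to 6.62, line 59 at 6.20), Itih5 (5.24 to 6.12, line 59 at 5.61) and Kcnma1 (4.80 to 6.25, line 59 at 5.22) lay under 6.72, the odorant receptor level of the cultures. None of these 5 genes was thus shown to be above background in any of these 10 cultures, which do not include line 1. In the 2 normal NSC cultures Gjc3 was at 8.23 and 6.88 and Cdh19 at 6.86 and 6.68. Other increases were already high in the line 59 culture. Tdrkh (9.80), Bex1 (9.59), Slc35f1 (7.03) and Uchl1 (8.83) were highest there of the 10 lines, and Adh7 (9.47 in a range of 6.92 to 9.63) and Nes (10.02 in a range of 7.96 to 10.39) were at rank 2. Sox2 was at 8.63 in the line 59 culture, rank 4 of 10 from the highest, in a range of 7.16 to 9.01.

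On chromosome 16 the line 59 culture had a median deviation of -0.32, against -0.11 to 0.12 in the 9 others, over genes above the tumor level of 5.25. Of the 26 genes called lower there, it was lowest of 10 in 20, against 11.8% of all genes. It was below lines 31 and 123 in 25, against 31.1% of all genes. Rpl39l was the exception, with the line 59 culture the highest of 10. Its lower call in tumors was against line 1 (-2.64), and it was lost without the line 1 tumors (-0.18, adjusted p = 0.82) or without line 59 tumor 1, 2 or 3 (adjusted p = 0.054, 0.11 and 0.056). On chromosome 3 the culture was at 0.11, within the -0.28 to 0.19 of the others, and of the 28 genes called higher it was highest of 10 in 6 and above lines 31 and 123 in 16. Over all genes it was highest in 15.9% and above both in 32.9%. The same counts over the uncalled genes of these chromosomes are not given.

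**Figure D5:**
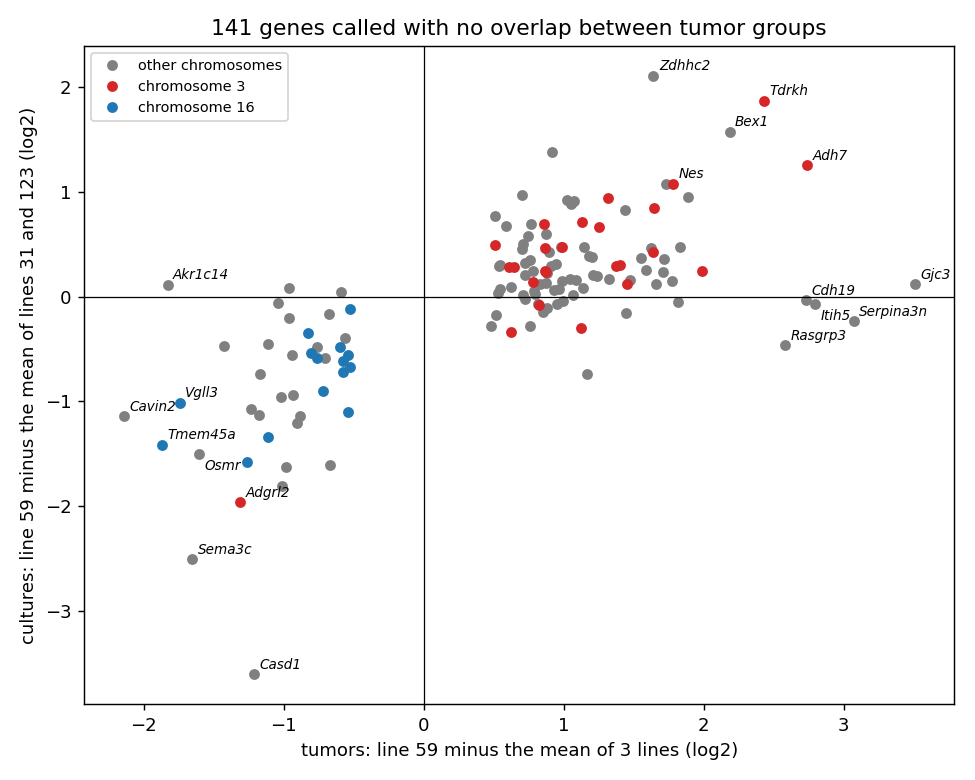
Log2 difference of line 59 in tumors (x axis, against the mean of 3 lines) and in culture (y axis, 1 array, against the mean of lines 31 and 123) for the 99 higher and 42 lower genes called without overlap, coloured by chromosome. Genes lower in tumors lay mostly below 0 in culture, Casd1 at -3.60 and Sema3c at -2.51, while Gjc3, Cdh19, Itih5 and Serpina3n lay between -0.24 and 0.12.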

How the data were processed

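Expression was measured on Affymetrix arrays from Trizol-extracted RNA, 100 ng per labelling per the labels' protocols. The authors deposited log2 values, and RMA, GCOS and Affymetrix Expression Console are named per the submitters' processing notes, with their order not given. The genome build behind the array annotation: not given in the sources used here. Arrays give no count depth, so the number of arrays limits the precision.

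Of 34760 probe sets, 21640 are listed with 1 gene, 1321 with several and 11799 with none. For each of 19937 genes the probe set with the highest mean over 27 arrays was used, a rule that drops the others of 954 genes. A model with 1 mean per tumor line was fitted to the 12 tumors with limma 3.58.1 in R 4.3.3 (lmFit, eBayes), 8 residual degrees of freedom, and p-values were adjusted over all genes (Benjamini-Hochberg, threshold 0.05). Summaries used Python 3.11.15 with pandas 2.3.3 and numpy 2.4.6, and figures matplotlib 3.10.9.

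The genes named are the 6 markers, the 12 largest increases and 12 largest decreases among called genes without overlap, and called members of 40 gene lists (753 genes, 700 measured). Members and lists were chosen with earlier results of these data known. Other genes, Kcnma1 and those of chromosomes 3 and 16 among them, were chosen after their values were seen. Chromosome and gene order (19840 genes) came from RefSeq GRCm38.p6, with no coordinates used.

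On simulated data, log2 differences of 0.5, 1, 2 and 4 were called in 28, 84, 98 and 100% of 50 genes each among 19937. Replicate numbers did not pair the tumors: 3 of 18 same-numbered pairs correlated above 0.1. The alternatives were other scalings, filters, probe set rules, fits and left-out tumors or lines.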

Additional observations from a re-analysis of the deposited data

Results flagged for a closer look

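In the 10 cultured lines, 6 of 27 genes held 1 line far from the other 9, judged by the gap to the nearest line over the whole range (Dixon's 95% value). The 27 are the markers, the 12 largest increases, the 12 largest decreases and Kcnma1. Chance gives such a gap in about 1 of 20 groups. In 3 genes the line apart was line 59, as the lowest: Nit2 at 6.81, Casd1 at 5.33 and Ranbp17 at 6.48. These 3 are among the 27 because of their decrease in line 59 tumors, so their lower level there was set by the choice. In the others it was another line: Itih5 was highest in line 123 at 6.12, Rasgrp3 was highest in line 116 at 10.15, and Uchl1 was lowest in line 331 at 6.43. Each culture is 1 array. The values of Casd1, Itih5, Ranbp17 and Uchl1 given here lie under 6.72, the odorant receptor level of the cultures.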

How the results depend on the processing

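With 3 tumors a group, leaving out 1 tumor gave 86 to 304 calls against all other lines, 287 to 981 against line 1, 75 to 393 against line 31 and 56 to 217 against line 123. With the 9 other tumors as 1 group the count of 233 was 66, without the line 1 tumors 115 and without the line 31 tumors 408. With SubQ arrays in the fit it was 139, and the counts against lines 1 and 31 were 403 and 111. A test against a log2 difference of 1 (treat) called 5 genes against all lines, and 28, 4 and 7 against lines 1, 31 and 123. A filter on dim genes gave 60 calls against line 123. Centred arrays (193), quantile normalization (228), trend and robust moderation (216), the mean of probe sets (234) and the dim filter (184) stayed within 1.5 times the count of 233. The replicate block, tried although the numbers do not pair the tumors, gave 202 calls against all lines and 619, 191 and 102 against lines 1, 31 and 123. Over 27 genes (the markers, the 12 largest increases, the 12 largest decreases and Kcnma1), 579 of 638 values kept their call, 59 lost it and 0 changed sign. The other list and chromosome genes named above are not part of this tally. Decreases on chromosome 16 (26) numbered 14 with centred arrays, 15 with trend and robust moderation, 5 with SubQ arrays and 1 with the others as 1 group. Increases on chromosome 3 (28) numbered 17 with SubQ arrays and 12 with the others as 1 group. Cultures beyond all 9 other lines were 44 genes, against 93 beyond lines 31 and 123. The cause of these changes was not tested. Low array signal limits the 32 higher and 20 lower calls whose lower group lay under the odorant receptor level.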
